A study of Mus musculus with 15 samples.

Results

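The 34 endothelial genes described here are markers of the cells that line blood vessels, covering genes of endothelium in general and of its glomerular and arterial forms. They were found by matching gene names in both deposited tables of a mouse kidney RNA sequencing study, and all 34 were present among 26823 named genes. Their raw read counts were taken in all 15 libraries. Each of the 34 also passed the filter on low counts, which left 15789 genes to test. The lowest count of any of them in any library was 7 reads, for Sox7.

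Endothelial cells are held together by junction proteins such as VE-cadherin, claudin 5 and PECAM1, and they receive survival and growth signals through the VEGF and angiopoietin receptors. Their identity is kept by transcription factors of the ETS family, such as ERG, and of the SOXF family, SOX7, SOX17 and SOX18. In the kidney, the endothelium of the glomerulus and of the peritubular capillaries is fenestrated, VEGF made by podocytes and tubules maintains it, and arteries and arterioles carry their own set of markers such as Gja5, Gja4 and Sema3g.

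RNA was taken from whole kidney of mice killed at 4 months of age, 5 in each of 3 groups. The cFGF23-Hyp group carried the genotype label Phex_KO and received AAV-cFGF23, an adeno-associated viral vector that encodes cFGF23, by a vein at 4 weeks of age (1e12 vg per mouse), which was 3 months before death. The Hyp group had the same genotype label and was given PBS. The WT group was labelled wild type and was also given PBS. The design text names the mutant line Hyp-Duk. Phex encodes an endopeptidase whose loss leads to high circulating FGF23, the phosphate-lowering hormone of bone, and cFGF23 is a carboxy-terminal fragment of that hormone that can occupy its receptor complex. No group received a vector without cFGF23, so vector and cFGF23 cannot be told apart. The labels give neither the promoter nor the target tissue of the vector, nor the sex of the mice or any batch.

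Total counts ran from 13083190 to 21829906 per library. The library labelled WT_5 is wild type by title and Phex_KO by genotype label. Its level of Synpr, a synaptic vesicle gene used here only to check labels, was 0.542 CPM (reads of a gene scaled to library depth with TMM factors), against 21.8 to 40.6 CPM in the other 4 WT libraries and 0.303 to 1.29 CPM in the Hyp libraries. In the library labelled cFGF23-Hyp_5, Synpr stood at 42 CPM, against 0.276 to 2.94 CPM in the other 4 cFGF23-Hyp libraries. Phex itself had 0 to 3 reads in every library and could not check a genotype. Synpr does not measure the genotype either, and its difference between Hyp and WT is known here only from these same libraries. The library cFGF23-Hyp_3 lay at -76.08 on the first principal component of all tested genes (22.8% of the variance), where the other 14 lay at -11.93 to 17.10, and it had the fewest detected genes (20444). An exchange or mislabelling of WT_5 and cFGF23-Hyp_5 is possible and was not tested. All 3 libraries stay in the groups of their titles, and main results are also given without them.

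All 34 genes were detected in every library. Pecam1 and Cdh5, which encode PECAM1 and VE-cadherin of the endothelial junction, were at 26.9 to 50.8 CPM and at 17.4 to 32.3 CPM over the 15 libraries. On the FPKM values that the authors deposited, which are scaled for both gene length and depth, Plvap, which encodes the diaphragm protein of fenestrated capillaries, was the highest of the 34 in each group, with 43.2 ± 10.9 FPKM in cFGF23-Hyp, 56.5 ± 7.3 in Hyp and 44.4 ± 9.78 in WT kidneys (SD, n = 5 each). Eng, encoding the TGF-beta co-receptor endoglin, came next in each group, with 24.7 ± 3.58 FPKM in cFGF23-Hyp, 29.8 ± 3.51 in Hyp and 24.3 ± 3.38 in WT. From the fifth gene in this order downwards, most neighbours differed by less than their SD. At the low end, Vwf, encoding the clotting carrier von Willebrand factor, had 0.161 ± 0.0705 FPKM in cFGF23-Hyp, 0.18 ± 0.0481 in Hyp and 0.148 ± 0.0536 in WT. Tal1, encoding a transcription factor shared with blood progenitors, stood just above it, with 0.341 ± 0.0878, 0.444 ± 0.0491 and 0.418 ± 0.0292 FPKM in cFGF23-Hyp, Hyp and WT kidneys. The set thus spans a wide range of levels, and the low genes Sox7, Tal1 and Vwf carry the fewest reads.

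**Figure D1:**
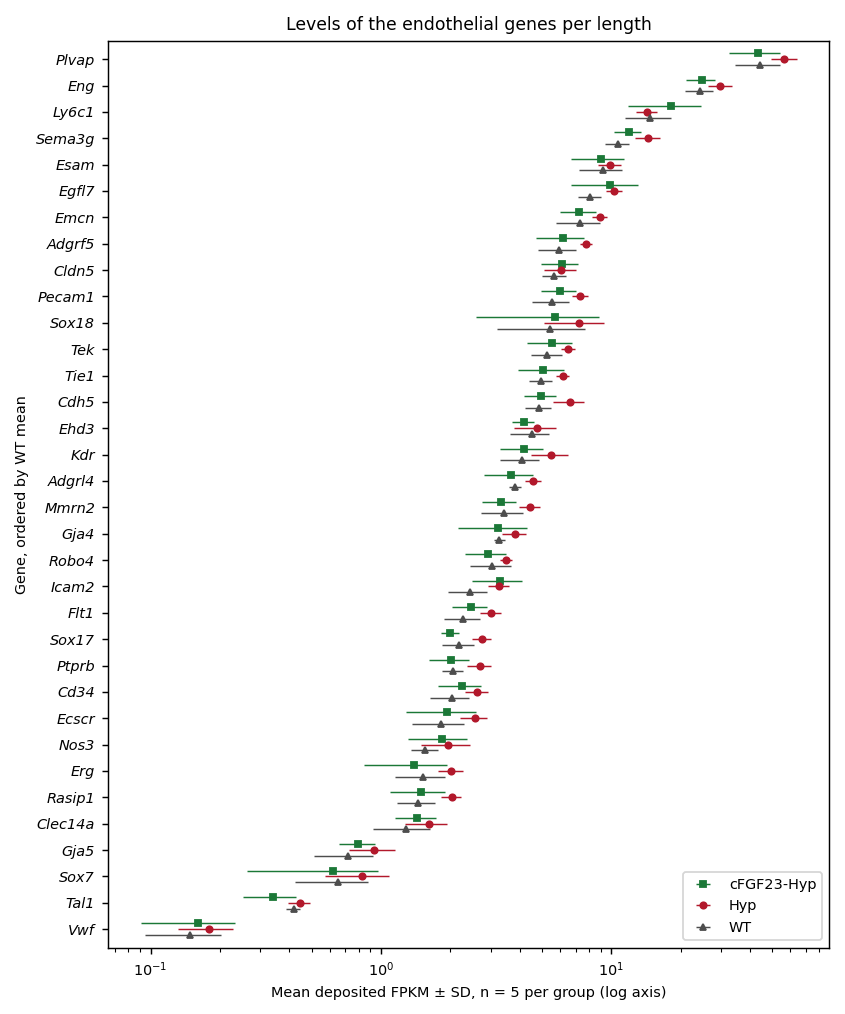
Mean deposited FPKM of each endothelial gene (log axis) with SD bars for cFGF23-Hyp (squares), Hyp (circles) and WT (triangles), n = 5 each, ordered by the WT mean. Plvap stands highest at 44.4 FPKM and Vwf lowest at 0.148 FPKM in WT.

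In Hyp kidneys nearly the whole set had a positive log2 fold change against WT, at a modest size. The question behind this comparison is what loss of Phex, with its sustained FGF23 signal, does to the kidney. Values were above 0 for 33 of the 34 genes, against 50.6% of all tested genes, and its median was 0.34, against 0.00 over all tested genes. It ran from -0.05 for Ly6c1, which encodes a surface antigen of capillary endothelium and of blood cells, to 0.48 for Rasip1 and Ecscr, a Ras-interacting protein of vessel lumen formation and an endothelial cell surface regulator. None of the 34 was called, while 54 of all tested genes (0.342%) had an adjusted p below 0.05 (edgeR quasi-likelihood F test). At an unadjusted p below 0.05, which makes no allowance for the number of genes, there were 17 members, all with a higher level in Hyp, against 7.51% of all tested genes in that direction. In 3 members, Sema3g, Egfl7 and Rasip1, every Hyp library lay above every WT library, as in 2.91% of all tested genes. In bulk tissue, more endothelial cells and more RNA per endothelial cell cannot be told apart.

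After the vector the picture turned the other way, with most of the set lower in cFGF23-Hyp than in Hyp kidneys, though this rested in good part on 1 library. The comparison asks how cFGF23 delivered by the vector alters the Hyp kidney. Log2 fold changes were below 0 for 31 of 34 genes, against 48.4% of all tested genes, with a median of -0.29 (all tested genes 0.01) and a range from -0.53 for Erg to 0.34 for Ly6c1. No gene of any kind was called (0%, edgeR quasi-likelihood F test). At an unadjusted p below 0.05 there were 16 members, all lower in cFGF23-Hyp, against 5.07% of all tested genes in that direction. Sox17 alone had every cFGF23-Hyp library below every Hyp library, as in 0.963% of all tested genes. Without the library labelled cFGF23-Hyp_5 the median became -0.18, 29 of 34 genes were below 0 and 5 had an unadjusted p below 0.05. Without both WT_5 and cFGF23-Hyp_5 these 3 values were the same. This comparison and the previous one share the Hyp libraries, so a chance deviation of Hyp moves both in opposite directions, and the values of each are set side by side only.

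Between cFGF23-Hyp and WT kidneys the set was nearly balanced in the libraries as titled. Of the log2 fold changes, 21 were above 0 (54.5% in all tested genes) and 13 below 0, with a median of 0.04, against 0.02 over all tested genes. None was called, nor was any other gene (0%), and no member had groups that did not overlap, as in 0.247% of all tested genes with cFGF23-Hyp higher and 0.241% with it lower. Icam2, which encodes an adhesion molecule of endothelium and leukocytes, was the only member with an unadjusted p below 0.05 (3.44% of all tested genes had one with cFGF23-Hyp higher), at a log2 fold change of 0.44 ± 0.17 (SE, unadjusted p = 0.0205, adjusted p = 0.835, edgeR's quasi-likelihood test). Here too 1 library mattered, since without cFGF23-Hyp_5 the median was 0.15, 30 genes were above 0 and 4 had an unadjusted p below 0.05. Without both WT_5 and cFGF23-Hyp_5 the median was 0.13, against 0.02 over all tested genes, and 31 genes were above 0. With cFGF23-Hyp_3 left out as well it was 0.13, with 27 above 0. The near balance therefore holds only for the libraries as titled. Without WT_2 or without cFGF23-Hyp_4 the median was -0.02, with 16 and 14 genes above 0, and without WT_3 it was 0.12, with 28 above 0.

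**Figure D2:**
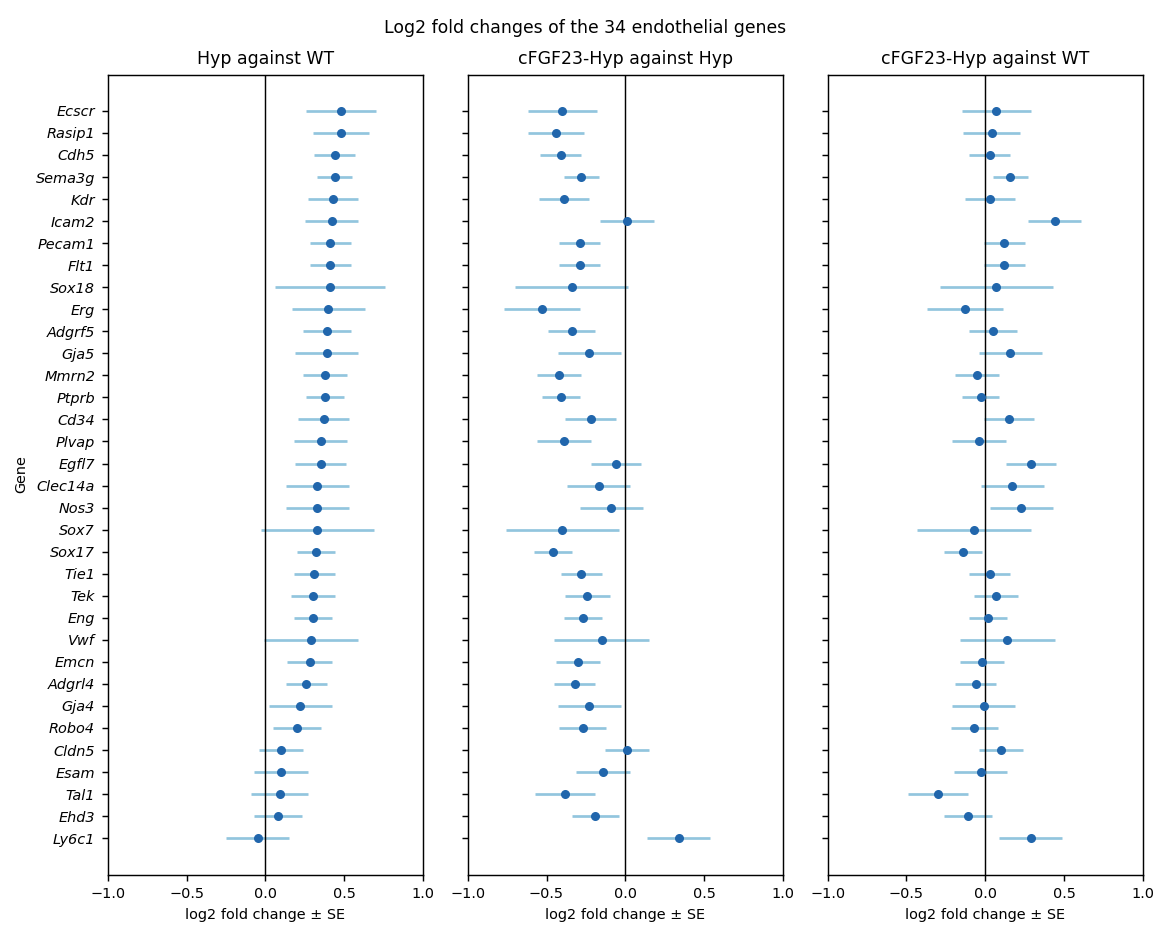
Log2 fold change ± SE of the 34 genes (edgeR fit of 15 libraries) for Hyp against WT on the left, cFGF23-Hyp against Hyp in the middle and cFGF23-Hyp against WT on the right, ordered by the left panel. Of the points, 33 lie right of 0 in Hyp against WT, 31 left of 0 in cFGF23-Hyp against Hyp, and 21 right of 0 in cFGF23-Hyp against WT.

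In some libraries most members lay on the same side of their means, and in others they were split. A score was taken for each library by averaging, over the 34 genes, how far log2 CPM lay from the 15-library mean of that gene. The score was 0.00, -0.08, 0.10, 0.12 and -0.59 in cFGF23-Hyp_1 to cFGF23-Hyp_5, 0.16, 0.04, 0.24, 0.25 and 0.33 in Hyp_1 to Hyp_5, and -0.15, -0.32, 0.14, -0.17 and -0.08 in WT_1 to WT_5. All 5 Hyp scores were above 0, and 1 WT library, WT_3, and 2 cFGF23-Hyp libraries lay within their range. The library cFGF23-Hyp_5 was the lowest of all 15 for 21 of the 34 genes and above the mean of the gene for none of them. Hyp_5 was the highest of the 15 for 15 genes and above the mean for 32. WT_2 was the lowest for 6 genes and above the mean for 1 gene. In cFGF23-Hyp_3 the members were split, with 22 above their means and 12 below, the highest level of all 15 libraries for 7 genes, among them Ly6c1, Egfl7 and Icam2, and the lowest for 3, among them Erg and Adgrf5. Summed over the 34 genes, the level was 588 to 902 CPM in cFGF23-Hyp, 877 to 1111 CPM in Hyp and 667 to 940 CPM in WT kidneys. The number of members at an unadjusted p below 0.05 in Hyp against WT changed with single libraries, to 8 without WT_2 and 11 without Hyp_5. In cFGF23-Hyp against Hyp it was 6 without Hyp_5, 8 without Hyp_3, 9 without Hyp_4, 9 without cFGF23-Hyp_2 and 10 without Hyp_1.

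**Figure D3:**
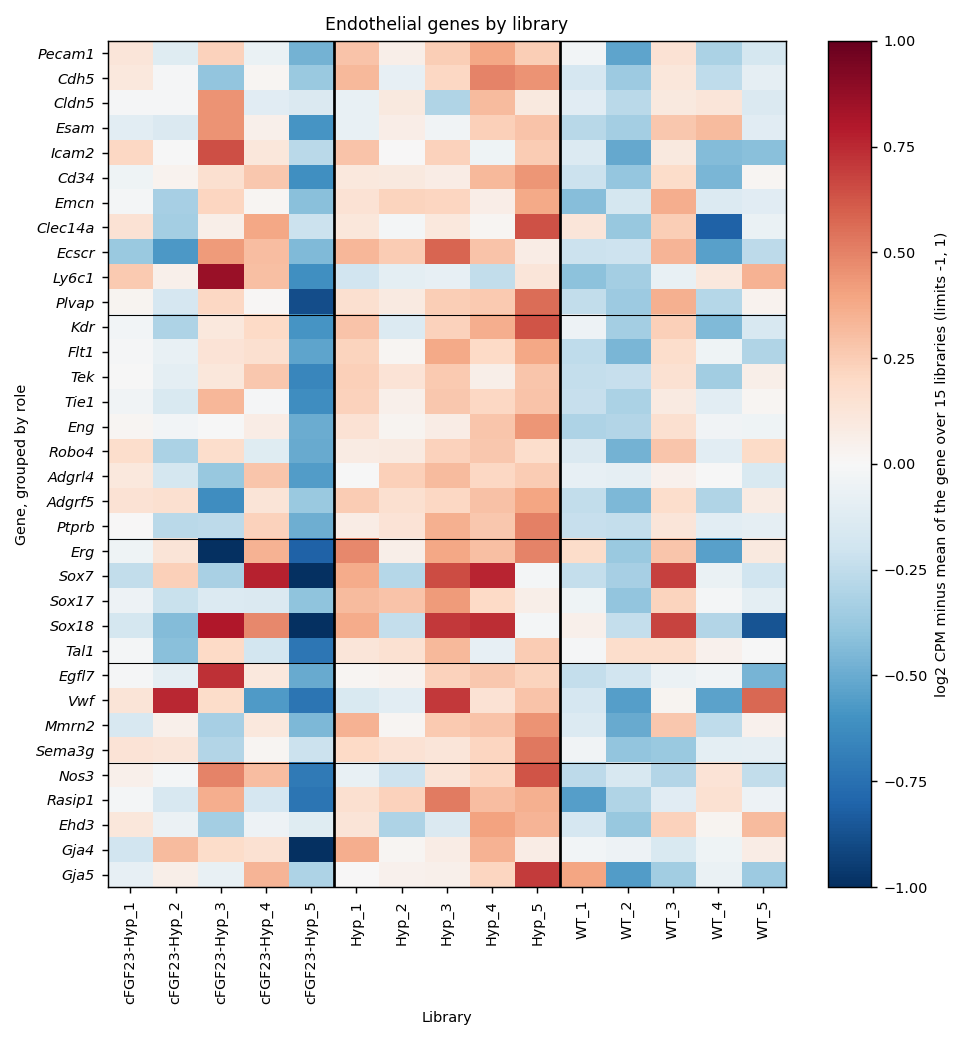
Distance of log2 CPM from each gene's 15-library mean (colour, limits at -1 and 1), genes in rows grouped by role and libraries in columns (cFGF23-Hyp, Hyp, WT). The column of cFGF23-Hyp_5 is blue in all 34 rows, and the column of Hyp_5 is red in 32.

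Among the 4 secreted factors, all had a positive log2 fold change in Hyp against WT and a negative one in cFGF23-Hyp against Hyp. The median against Hyp was -0.22, and -0.12 without WT_5 and cFGF23-Hyp_5, where Egfl7 was above 0 (0.05). Sema3g (ENSMUSG00000021904, chromosome 14, 30939817 to 30952309), which encodes a semaphorin made by arterial endothelium and also by podocytes, had the smallest p of the set in Hyp against WT (positions of genes are those of the deposited tables). Its levels were 61.5, 61, 45.7, 56.6 and 48.3 CPM in cFGF23-Hyp, 64.2, 61.8, 61, 65 and 80.9 CPM in Hyp, and 54.6, 42.6, 43.3, 52.3 and 52.7 CPM in WT kidneys (replicates 1 to 5 throughout). Every Hyp value lay above every WT value, with Hyp_5 highest, and the cFGF23-Hyp values overlapped both groups. In Hyp against WT its log2 fold change was 0.44 ± 0.11 (SE, unadjusted p = 8.5e-04, adjusted p = 0.091, edgeR's quasi-likelihood test). In cFGF23-Hyp against Hyp it was -0.28 ± 0.11 (adjusted p = 0.389), and -0.24 without WT_5 and cFGF23-Hyp_5. Mmrn2 (ENSMUSG00000041445, chromosome 14, 34097422 to 34126244), encoding the endothelial matrix protein multimerin 2, had 13.1, 15.2, 11.6, 15.8 and 10.7 CPM in cFGF23-Hyp, 18.7, 14.9, 17.5, 17.9 and 20.1 CPM in Hyp, and 13.3, 10.3, 17.6, 12.2 and 15.1 CPM in WT. Its Hyp values were mostly the highest, but Hyp_2 lay among both other groups and WT_3 among the Hyp values. The log2 fold change of Mmrn2 was 0.38 ± 0.14 in Hyp against WT and -0.42 ± 0.14 in cFGF23-Hyp against Hyp (SE, adjusted p = 0.268 and 0.330, edgeR's quasi-likelihood test).

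Egfl7, encoding a secreted protein of vessel tube formation, averaged 35.7 CPM in cFGF23-Hyp, 37.3 CPM in Hyp and 29.2 CPM in WT kidneys. Its Hyp libraries ran from 33.9 to 40.3 CPM and its WT libraries from 24.1 to 32.5 CPM, so that these groups did not overlap, with a log2 fold change of 0.35 ± 0.16 (SE, adjusted p = 0.367, edgeR's quasi-likelihood test). Its cFGF23-Hyp libraries ran from 23.5 CPM in cFGF23-Hyp_5 to 55.3 CPM in cFGF23-Hyp_3, wider than either other group. Vwf averaged 2.61 CPM in cFGF23-Hyp, 2.93 CPM in Hyp and 2.39 CPM in WT, with an SE of 0.30 on the log2 scale in each comparison that was as large as any of its fold changes (0.29, -0.15 and 0.14).

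Among the 9 receptors and co-receptors, signs were uniform. All 9 had a positive log2 fold change in Hyp against WT, with a median of 0.31 and a range of 0.20 to 0.43. Of them, 7 had an unadjusted p below 0.05, against 7.51% of all tested genes in that direction. All 9 had a negative one in cFGF23-Hyp against Hyp, with a median of -0.29 and a range of -0.41 to -0.24. Again 7 had an unadjusted p below 0.05, against 5.07% of all tested genes in that direction. Without WT_5 and cFGF23-Hyp_5 the medians were 0.35 and -0.19, with the same 9 of 9 in each direction. In cFGF23-Hyp against Hyp only 5 of all 34 members then had an unadjusted p below 0.05. Kdr (ENSMUSG00000062960, chromosome 5, 76093487 to 76139118) encodes VEGF receptor 2, the main signalling receptor for VEGF-A. Its level was 40, 32.9, 43.9, 46.7 and 27 CPM in cFGF23-Hyp, 49.8, 37.1, 47.7, 52.5 and 63.1 CPM in Hyp, and 39.4, 32.1, 47.9, 29.9 and 36.5 CPM in WT. The groups overlapped, since WT_3 lay above Hyp_2 and Hyp_3. On the log2 scale the fold change of Kdr was 0.43 ± 0.16 in Hyp against WT and -0.39 ± 0.16 in cFGF23-Hyp against Hyp (SE, adjusted p = 0.268 and 0.430, edgeR's quasi-likelihood test).

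Flt1 (ENSMUSG00000029648, chromosome 5, 147498414 to 147662821) encodes VEGF receptor 1, which binds VEGF-A tightly and in its soluble form acts as a decoy. It stood at 34.2, 32.9, 38.1, 38.8 and 24 CPM in cFGF23-Hyp, 40.4, 35, 44.9, 39.7 and 45.2 CPM in Hyp, and 29, 25.2, 39.1, 33.6 and 28.1 CPM in WT. Again WT_3 and Hyp_2 bridged the groups. For Flt1 the log2 fold change was 0.41 ± 0.13 in Hyp against WT and -0.29 ± 0.13 in cFGF23-Hyp against Hyp (SE, adjusted p = 0.195 and 0.473, edgeR's quasi-likelihood test). Vegfa, the ligand of both receptors and no member of the set, averaged 239 ± 33.5 CPM in cFGF23-Hyp, 268 ± 15.4 CPM in Hyp and 268 ± 29.3 CPM in WT (SD, n = 5 each), with a log2 fold change of 0.00 ± 0.10 in Hyp against WT (SE).

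Ptprb (ENSMUSG00000020154, chromosome 10, 116111428 to 116225440) encodes VE-PTP, the endothelial phosphatase that restrains the angiopoietin receptor TIE2. It had 29.9, 24.7, 24.8, 35 and 21.2 CPM in cFGF23-Hyp, 31.4, 32.8, 38.1, 35.9 and 42.3 CPM in Hyp, and 25.4, 25.2, 32.4, 27.7 and 28 CPM in WT. The lowest Hyp library lay just below WT_3, and cFGF23-Hyp_4 lay within the Hyp values. Its log2 fold change was 0.38 ± 0.12 in Hyp against WT and -0.41 ± 0.12 in cFGF23-Hyp against Hyp (SE, adjusted p = 0.192 and 0.285, edgeR's quasi-likelihood test). Tek, which encodes TIE2, averaged 26.2, 31 and 25.1 CPM in cFGF23-Hyp, Hyp and WT kidneys. Tie1, its orphan partner receptor, averaged 25.2, 30.6 and 24.6 CPM in the same order of groups. Both had log2 fold changes of similar size in Hyp against WT, 0.30 ± 0.14 for Tek and 0.31 ± 0.13 for Tie1 (SE, adjusted p = 0.352 and 0.309, edgeR's quasi-likelihood test). In cFGF23-Hyp against Hyp they were -0.24 ± 0.14 for Tek and -0.28 ± 0.13 for Tie1, and -0.12 and -0.17 without WT_5 and cFGF23-Hyp_5.

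Adgrf5 (ENSMUSG00000056492, chromosome 17, 43671342 to 43770448) encodes an adhesion G protein-coupled receptor of lung and kidney endothelium that is also made by other cells. It stood at 65.3, 66.1, 38.2, 64.3 and 45.7 CPM in cFGF23-Hyp, 70.5, 65.9, 68, 72.2 and 77.7 CPM in Hyp, and 49.7, 43.1, 66.5, 47.9 and 62.5 CPM in WT. In cFGF23-Hyp the values fell into 3 near 65 CPM and 2 low ones, cFGF23-Hyp_3 and cFGF23-Hyp_5, and only Hyp_2 and WT_3 overlapped between Hyp and WT. The log2 fold change of Adgrf5 was 0.39 ± 0.15 in Hyp against WT and -0.34 ± 0.15 in cFGF23-Hyp against Hyp (SE, adjusted p = 0.266 and 0.454, edgeR's quasi-likelihood test). Eng averaged 101, 122 and 99.2 CPM in cFGF23-Hyp, Hyp and WT kidneys. Adgrl4, encoding a second adhesion receptor of endothelium, and Robo4, encoding a guidance receptor that stabilises vessels, had log2 fold changes of 0.26 ± 0.13 and 0.20 ± 0.15 in Hyp against WT (SE, adjusted p = 0.386 and 0.587, edgeR's quasi-likelihood test).

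The proximal promoters of 21 of the 34 genes, with 28 start sites, were found in the RefSeq table for GRCm38.p6. The 250 bases before the start site are shown for Sema3g, as the member with the smallest p in Hyp against WT, and for the receptor kinases Kdr, Flt1 and Tie1, whose windows hold the ETS core searched for. Bases are written 5′ to 3′ on the strand of the gene, and capitals mark the ETS core GGAAGT or its reverse complement ACTTCC.
Sema3g, chr14:31217623-31217872 (+): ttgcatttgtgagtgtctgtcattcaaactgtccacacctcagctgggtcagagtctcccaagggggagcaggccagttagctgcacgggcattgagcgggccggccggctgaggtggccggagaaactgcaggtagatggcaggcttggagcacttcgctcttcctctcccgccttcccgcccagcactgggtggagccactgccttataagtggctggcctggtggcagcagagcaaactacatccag
Kdr, chr5:75978456-75978705 (-): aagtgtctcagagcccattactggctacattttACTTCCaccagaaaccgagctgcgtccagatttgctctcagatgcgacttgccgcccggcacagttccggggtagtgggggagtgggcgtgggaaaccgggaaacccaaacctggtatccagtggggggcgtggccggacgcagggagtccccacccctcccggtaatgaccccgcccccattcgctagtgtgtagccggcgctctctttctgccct
Flt1, chr5:147726012-147726261 (-): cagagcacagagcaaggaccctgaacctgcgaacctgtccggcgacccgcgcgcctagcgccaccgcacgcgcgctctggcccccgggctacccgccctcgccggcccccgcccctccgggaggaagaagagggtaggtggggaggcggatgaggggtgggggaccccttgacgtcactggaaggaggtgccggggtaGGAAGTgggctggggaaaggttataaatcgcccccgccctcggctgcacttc
Tie1, chr4:118489850-118490099 (-): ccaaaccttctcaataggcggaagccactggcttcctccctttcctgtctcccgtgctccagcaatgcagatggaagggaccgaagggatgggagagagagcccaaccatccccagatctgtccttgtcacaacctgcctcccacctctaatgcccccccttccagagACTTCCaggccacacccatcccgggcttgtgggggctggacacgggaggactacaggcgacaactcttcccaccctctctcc
Counting the base next to the start site as -1, the match begins at -217 in Kdr, -52 in Flt1 and -82 in Tie1. The Sema3g window has neither GGAAGT nor ACTTCC. Shorter runs such as GGAA and TTCC were neither searched for nor marked, and TTCC does occur in the Sema3g window. Both strands were searched for 3 cores, none of which contains another: GGAAGT for ETS factors, AACAAT for SOX factors and AGATAA for GATA factors. The ETS core was in 8 of 28 member windows (28.6%), against 19.7% of 32851 promoters in the table, in Adgrf5, Egfl7, Eng, Flt1, Kdr, Ly6c1 and Tie1. The SOX core was in 3 windows (10.7%, against 9.42%), those of Emcn, Erg and Tek, and the GATA core in 2 (7.14%, against 9.99%), those of Erg and Tal1. A match is a run of letters and not a bound site. RefSeq and the GENCODE annotation of the same build place the starts of Sema3g, Kdr and Flt1 together, and that of Tie1 apart. The deposited tables start Sema3g at 30939817, away from the window above, and place Kdr, Flt1 and Tie1 away from their windows too. The deposited coordinates were therefore not combined with the windows.

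Of the 5 transcription factors, all had a positive log2 fold change in Hyp against WT (median 0.33) and a negative one in cFGF23-Hyp against Hyp (median -0.40, and -0.27 without WT_5 and cFGF23-Hyp_5). Sox17 (ENSMUSG00000025902, chromosome 1, 4561154 to 4567577), encoding a SOXF factor of arterial endothelium, was the member with the smallest p in cFGF23-Hyp against Hyp. It had 10.6, 9.36, 9.94, 9.88 and 8.27 CPM in cFGF23-Hyp, 13.7, 13.4, 14.8, 12.6 and 11.4 CPM in Hyp, and 10.6, 8.3, 12.8, 10.8 and 10.2 CPM in WT. All cFGF23-Hyp values lay below all Hyp values, while Hyp and WT overlapped through WT_3. Its log2 fold change was -0.46 ± 0.12 in cFGF23-Hyp against Hyp (SE, unadjusted p = 0.0012, adjusted p = 0.226, edgeR's quasi-likelihood test). In Hyp against WT it was 0.32 ± 0.12 (adjusted p = 0.251). The value against Hyp was -0.41 without WT_5 and cFGF23-Hyp_5, close to that in all libraries.

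Erg, encoding the ETS factor of endothelial identity, had the most negative log2 fold change of the set in cFGF23-Hyp against Hyp, -0.53 ± 0.24 (SE, adjusted p = 0.459, edgeR's quasi-likelihood test). It averaged 4.84 CPM in cFGF23-Hyp, 7.06 CPM in Hyp and 5.36 CPM in WT. The values in cFGF23-Hyp were split, at 2.7 CPM in cFGF23-Hyp_3 and 3.09 CPM in cFGF23-Hyp_5, against 5.34, 6.04 and 7.05 CPM in the other 3. Sox18 and Sox7, the other SOXF factors, had the largest SEs of the set, 0.35 to 0.36 on the log2 scale. Sox18 ran from 3.01 to 16 CPM in cFGF23-Hyp, 7.73 to 15.3 CPM in Hyp and 4.98 to 14.7 CPM in WT, and its log2 fold change of 0.41 ± 0.35 in Hyp against WT was about as large as its SE. Tal1 averaged 1.51, 1.96 and 1.85 CPM in cFGF23-Hyp, Hyp and WT kidneys, with a log2 fold change of 0.09 ± 0.18 in Hyp against WT and -0.38 ± 0.19 in cFGF23-Hyp against Hyp (SE, adjusted p = 0.867 and 0.493, edgeR's quasi-likelihood test).

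The 11 junction and surface genes spanned log2 fold changes of -0.05 to 0.48 in Hyp against WT and -0.41 to 0.34 in cFGF23-Hyp against Hyp. In Hyp against WT, 10 had a positive log2 fold change (median 0.35), and in cFGF23-Hyp against Hyp 8 had a negative one (median -0.22, and -0.11 without WT_5 and cFGF23-Hyp_5). Cdh5 (ENSMUSG00000031871, chromosome 8, 104828257 to 104871143) had 24.5, 22.7, 17.4, 23.2 and 17.6 CPM in cFGF23-Hyp, 28.6, 21.5, 26.3, 32.3 and 31.2 CPM in Hyp, and 20.3, 17.7, 24.7, 19.1 and 21.4 CPM in WT. Of the Hyp libraries, 4 lay above all WT libraries, and Hyp_2 lay among them. Log2 fold changes of Cdh5 were 0.44 ± 0.13 in Hyp against WT and -0.41 ± 0.13 in cFGF23-Hyp against Hyp (SE, adjusted p = 0.150 and 0.302, edgeR's quasi-likelihood test), and -0.35 in cFGF23-Hyp against Hyp without WT_5 and cFGF23-Hyp_5. Pecam1 (ENSMUSG00000020717, chromosome 11, 106545043 to 106641454), which platelets and leukocytes also express, had 42.3, 35.6, 45.5, 37.1 and 27.9 CPM in cFGF23-Hyp, 47.3, 40.5, 46, 50.8 and 46.2 CPM in Hyp, and 38, 26.9, 43, 31.2 and 34.3 CPM in WT. Only Hyp_2 and WT_3 overlapped between Hyp and WT. The log2 fold change of Pecam1 was 0.41 ± 0.13 in Hyp against WT and -0.29 ± 0.13 in cFGF23-Hyp against Hyp (SE, adjusted p = 0.184 and 0.459, edgeR's quasi-likelihood test).

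**Figure D4:**
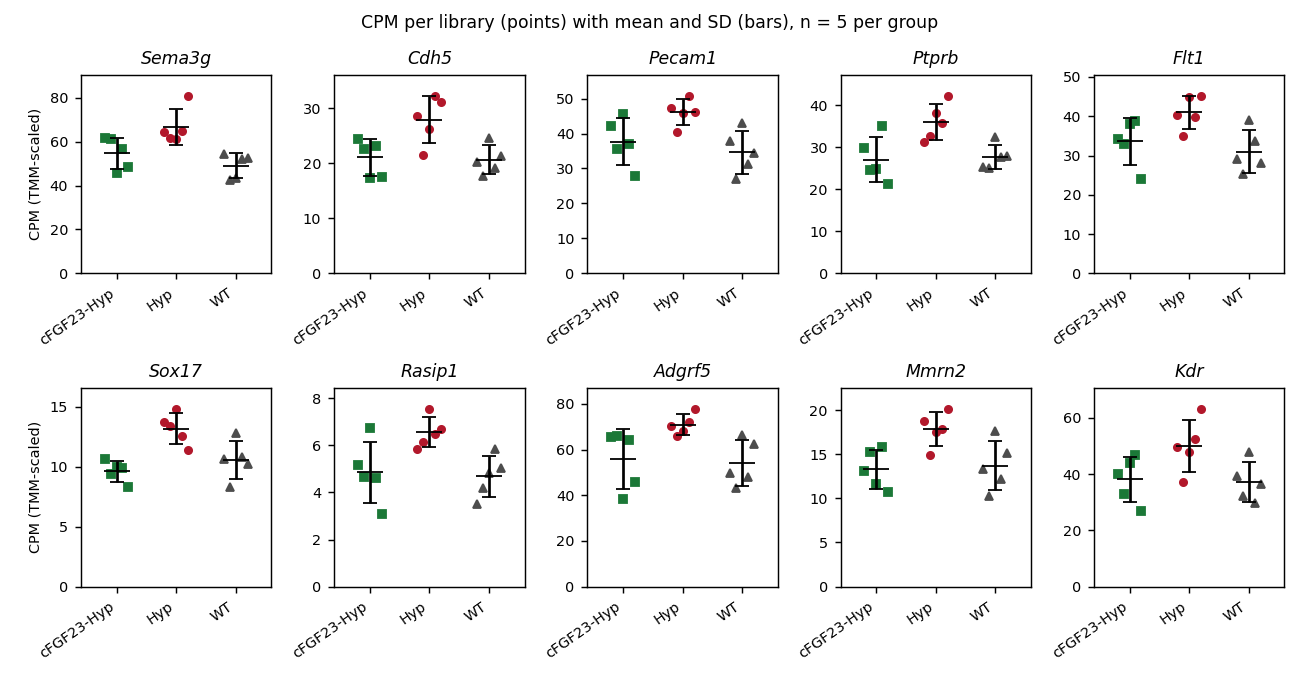
TMM-scaled CPM of 10 endothelial genes in each library (points), with mean and SD (bars), n = 5 each for cFGF23-Hyp, Hyp and WT. The 10 are those with the smallest unadjusted p in Hyp against WT, so a Hyp mean apart from the WT mean follows from that choice. Hyp means are highest in all 10 panels, from 6.55 CPM for Rasip1 to 70.9 CPM for Adgrf5, and most groups overlap.

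Plvap, the fenestral diaphragm gene, averaged 86.6 CPM in cFGF23-Hyp, 113 CPM in Hyp and 89 CPM in WT, with log2 fold changes of 0.35 ± 0.17 in Hyp against WT and -0.39 ± 0.17 in cFGF23-Hyp against Hyp (SE, adjusted p = 0.401 and 0.459, edgeR's quasi-likelihood test). Its cFGF23-Hyp libraries ran from 83.4 to 108 CPM apart from cFGF23-Hyp_5 at 50.6 CPM, and without WT_5 and cFGF23-Hyp_5 the value against Hyp was -0.25. Emcn, encoding the sialomucin endomucin of capillaries and veins, Cd34, encoding another sialomucin that blood progenitors share, Clec14a, encoding a lectin of angiogenic vessels, and Ecscr had log2 fold changes of 0.28 to 0.48 in Hyp against WT. Icam2 averaged 6.33 CPM in cFGF23-Hyp, 6.26 CPM in Hyp and 4.66 CPM in WT, so that its value in cFGF23-Hyp against Hyp was 0.01 ± 0.17 (SE). Cldn5, the claudin of tight endothelial junctions, and Esam, a junctional adhesion molecule, had small values in Hyp against WT, both 0.10 (SE 0.14 and 0.17).

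Ly6c1 was the 1 member below 0 in Hyp against WT and had the highest value of the 3 members above 0 in cFGF23-Hyp against Hyp, ahead of Icam2 and Cldn5, both at 0.01. It averaged 30.8 CPM in cFGF23-Hyp, 24.3 CPM in Hyp and 25.1 CPM in WT, and ran from 16.9 CPM in cFGF23-Hyp_5 to 47.1 CPM in cFGF23-Hyp_3. Its log2 fold change was -0.05 ± 0.20 in Hyp against WT and 0.34 ± 0.20 in cFGF23-Hyp against Hyp (SE, adjusted p = 0.934 and 0.543, edgeR's quasi-likelihood test), and 0.07 and 0.49 without WT_5 and cFGF23-Hyp_5. Reads of Ly6c1 are hard to separate from those of its close paralog Ly6c2, so its level is uncertain.

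Of the 5 genes for signalling, trafficking and gap junctions, Rasip1 (ENSMUSG00000044562, chromosome 7, 45276912 to 45288517) was the one with an unadjusted p below 0.05. Its levels were 5.16, 4.65, 6.74, 4.63 and 3.09 CPM in cFGF23-Hyp, 5.86, 6.16, 7.54, 6.49 and 6.71 CPM in Hyp, and 3.52, 4.21, 4.81, 5.83 and 5.04 CPM in WT. The lowest Hyp value lay just above the highest WT value, and cFGF23-Hyp_3 lay within the Hyp values. Rasip1 had a log2 fold change of 0.48 ± 0.18 in Hyp against WT and -0.44 ± 0.18 in cFGF23-Hyp against Hyp (SE, adjusted p = 0.257 and 0.423, edgeR's quasi-likelihood test). Ehd3, encoding a membrane trafficking protein enriched in glomerular endothelium, averaged 27.5, 31.6 and 29.8 CPM in cFGF23-Hyp, Hyp and WT, with a log2 fold change of 0.08 ± 0.15 in Hyp against WT (SE). Nos3, encoding endothelial nitric oxide synthase, had 0.33 ± 0.20, and the arterial connexin genes Gja5 and Gja4 had 0.39 ± 0.20 and 0.22 ± 0.20 (log2 fold change ± SE in Hyp against WT). In cFGF23-Hyp against Hyp the log2 fold changes of Nos3, Gja5 and Gja4 were -0.09, -0.23 and -0.23. The median of the 5 genes against Hyp was -0.23, and -0.16 without WT_5 and cFGF23-Hyp_5, where Nos3 was above 0 (0.05).

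Members were called in Hyp against WT by some other analyses of the same counts. DESeq2 called 351 genes (2.22%), of which Sema3g was a member (log2 fold change 0.44 ± 0.12, adjusted p = 0.0146). limma-voom called 76 genes (0.481%) and no member, with 20 members at an unadjusted p below 0.05. A fit of the Hyp and WT libraries alone called 516 genes (3.33%), with the members Sema3g, Ptprb and Egfl7 (adjusted p = 0.0300, 0.0485 and 0.0488, edgeR's quasi-likelihood test). Without cFGF23-Hyp_3 there were 345 genes (2.16%), and Sema3g was called (adjusted p = 0.0373). Leaving out WT_5 and cFGF23-Hyp_5 gave 228 genes (1.43%) and no member, with 16 members at an unadjusted p below 0.05 and a median of 0.35. Without these 2 and cFGF23-Hyp_3 there were 1527 genes (9.43%) and 7 members, Sema3g, Adgrf5, Tie1, Egfl7, Cdh5, Rasip1 and Pecam1 (adjusted p = 0.0125, 0.0178, 0.0249, 0.0322, 0.0338, 0.0454 and 0.0458). Where members were called they were higher in Hyp and made up 2.94% to 20.6% of the 34, which for a single member lies near the share of all tested genes.

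In cFGF23-Hyp against Hyp, DESeq2 called 121 genes (0.766%), with Sox17 as the 1 member (-0.45 ± 0.12, adjusted p = 0.0407). limma-voom called 2 genes (0.0127%) and no member, with 18 members at an unadjusted p below 0.05. Without WT_5 and cFGF23-Hyp_5 edgeR called 67 genes (0.421%) and no member. In cFGF23-Hyp against WT, DESeq2 called 6 genes (0.038%), limma-voom 0 (0%), and edgeR without WT_5 and cFGF23-Hyp_5 177 (1.11%), with no member in any of them. Leaving out cFGF23-Hyp_3 as well gave 583 genes (3.6%) there and 63 genes (0.389%) in cFGF23-Hyp against Hyp, again without a member.

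In the authors' deposited table for Hyp against WT, 1336 of 28216 genes (4.73%) have an adjusted p below 0.05, and 11 of the 34 members (32.4%) are among them, all higher in Hyp. They are Adgrf5, Adgrl4, Cdh5, Egfl7, Flt1, Kdr, Pecam1, Ptprb, Rasip1, Sema3g and Tie1. The smallest value among them in the authors' deposited table is that of Sema3g (log2 fold change 0.436, adjusted p = 0.00163). In the authors' deposited table for cFGF23-Hyp against Hyp, 94 of 28110 genes (0.334%) and 1 member pass, which is Sox17 (log2 fold change -0.454, adjusted p = 0.0459). Both of these shares are over every listed gene, including genes too low to be tested here. All 34 members passed the filter on low counts, so these shares are not directly comparable with the members' share.

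Other endothelial genes outside the 34 mostly had values of like sign. Their lists were chosen with earlier results of these data known and measured in the same kidneys, so they are not independent of the set. In a list of 22 other vascular endothelial markers, all 22 had a positive log2 fold change in Hyp against WT (median 0.37) and 20 a negative one in cFGF23-Hyp against Hyp (median -0.29, and -0.16 without WT_5 and cFGF23-Hyp_5), and none was called. Cd93, encoding a lectin-like receptor of endothelium, averaged 17.1 ± 2.4 CPM in cFGF23-Hyp, 22.1 ± 4.12 CPM in Hyp and 15.3 ± 2.38 CPM in WT (SD, n = 5 each), and Ushbp1 20.9 ± 3, 27.2 ± 1.16 and 21.7 ± 1.3 CPM in the same groups. Of 17 tested endothelial transcription factors outside the set, 16 were above 0 in Hyp against WT (median 0.30) and 15 below 0 in cFGF23-Hyp against Hyp (median -0.27), and none was called. Ets1, encoding an ETS factor of endothelium and lymphocytes, averaged 20.1 ± 4.55 CPM in cFGF23-Hyp, 29.5 ± 3.15 CPM in Hyp and 20.6 ± 2.67 CPM in WT, with a log2 fold change of 0.52 ± 0.14 in Hyp against WT (SE, adjusted p = 0.112, edgeR's quasi-likelihood test). Bcl6b, encoding a transcriptional repressor found in endothelium, had 4.54 ± 0.839, 6.87 ± 0.679 and 4.71 ± 1.11 CPM in cFGF23-Hyp, Hyp and WT kidneys.

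The wider vascular signalling list, with 34 genes of the VEGF, angiopoietin, Notch, apelin, endothelin and adrenomedullin pathways, held more genes of opposite sign. In Hyp against WT 28 were above 0 (median 0.22, range -0.47 to 0.75), and in cFGF23-Hyp against Hyp 26 were below 0 (median -0.19), with none called. Its receptors Calcrl, for adrenomedullin, and Ephb4, for ephrin B2, had log2 fold changes of 0.46 ± 0.13 and 0.26 ± 0.09 in Hyp against WT (SE, adjusted p = 0.141 and 0.228, edgeR's quasi-likelihood test). Of the genes of endothelial activation, 6 of 10 were tested, and Sele, Selp and Ackr1 stayed at or below 0.607 CPM in every library. Icam1, an adhesion molecule for leukocytes, averaged 13.9 ± 2.38 CPM in cFGF23-Hyp, 16.5 ± 1.03 CPM in Hyp and 12.9 ± 1.46 CPM in WT (SD, n = 5 each), and Tnfaip3, a brake on NF-kB, had a log2 fold change of 0.46 ± 0.25 in Hyp against WT (SE, adjusted p = 0.437, edgeR's quasi-likelihood test). Of 6 tested lymphatic markers 4 were above 0 in Hyp against WT. Flt4, encoding VEGF receptor 3, had 0.53 ± 0.17, while Ccl21a, a chemokine of lymphatic vessels, had -0.34 ± 0.19 (log2 fold change ± SE, adjusted p = 0.190 and 0.461, edgeR's quasi-likelihood test).

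Markers of podocytes, leukocytes and fibroblasts also had mostly positive log2 fold changes in Hyp against WT, though none was called, and their part in the result was not tested. Of 8 podocyte markers, 7 had a positive log2 fold change in Hyp against WT (median 0.33), with Podxl, which endothelium also expresses, at 0.43 ± 0.10 and the phosphatase gene Ptpro at 0.37 ± 0.10 (SE, adjusted p = 0.069 and 0.135, edgeR's quasi-likelihood test). Their summed level was 246 to 318 CPM in cFGF23-Hyp, 320 to 427 CPM in Hyp and 253 to 306 CPM in WT, so that every Hyp library lay above every other one in this sum, to which Podxl adds most. With the 8 genes weighted equally the groups overlapped, with scores of -0.36 to 0.06 in cFGF23-Hyp, 0.05 to 0.41 in Hyp and -0.21 to 0.23 in WT. All 7 tested leukocyte markers were positive (median 0.42), with a summed level of the list of 82.1 to 137 CPM in cFGF23-Hyp, 119 to 132 CPM in Hyp and 96.5 to 118 CPM in WT, and the lineage markers Itgam, Cd3e and Cd79a were too low to test, at or below 1.11 CPM. Ptprc, the pan-leukocyte marker CD45, and Coro1a, an actin regulator of leukocytes, had log2 fold changes of 0.41 ± 0.16 and 0.45 ± 0.16 (SE, adjusted p = 0.281 and 0.234, edgeR's quasi-likelihood test). All 6 fibroblast markers were positive (median 0.33), with 85.3 to 182 CPM in cFGF23-Hyp, 146 to 169 CPM in Hyp and 115 to 153 CPM in WT, and Col1a2 and Fbln1, both matrix genes, had log2 fold changes of 0.33 ± 0.17 and 0.41 ± 0.22 (SE, adjusted p = 0.417 and 0.426, edgeR's quasi-likelihood test).

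Set against Hyp, cFGF23-Hyp kidneys had log2 fold changes below 0 for 7 of 8 podocyte markers, all 7 tested leukocyte markers and all 6 fibroblast markers. Their medians were -0.28, -0.22 and -0.16, and -0.26, -0.06 and -0.01 without WT_5 and cFGF23-Hyp_5 (where 1 fibroblast marker was above 0), so that the leukocyte and fibroblast medians were then near 0.

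Markers of the contractile and renin cells of the vessel wall had a median nearer 0. Of the 10 markers of smooth muscle, pericytes and renin cells, 7 were positive in Hyp against WT, with a median of 0.07, and their summed level was 331 to 439 CPM in cFGF23-Hyp, 354 to 503 CPM in Hyp and 344 to 388 CPM in WT. In cFGF23-Hyp against Hyp 8 were below 0 and 2 above, with a median of -0.10, and -0.07 without WT_5 and cFGF23-Hyp_5. Pdgfrb and Notch3 had log2 fold changes of 0.29 ± 0.11 and 0.39 ± 0.16 in Hyp against WT (SE). Against Hyp they had -0.38 ± 0.11 and -0.52 ± 0.16, sizes like those of the endothelial set. In Hyp against WT, Acta2, Myh11, Rgs5, Tagln, Cspg4 and Cnn1 lay between -0.19 and 0.09, and Ren1 was at 0.27 ± 0.17 (SE). Against Hyp, these genes and Ren1 lay between -0.13 and 0.24. Lmod1, encoding the actin nucleator leiomodin of smooth muscle, was the only gene called in any of these lists. It was higher in Hyp than in WT, with 3.59 ± 0.365 CPM in cFGF23-Hyp, 6.23 ± 1.17 CPM in Hyp and 3.84 ± 0.393 CPM in WT (SD, n = 5 each) and a log2 fold change of 0.70 ± 0.14 in Hyp against WT (SE, adjusted p = 0.048, edgeR's quasi-likelihood test). Blood cell lists were small or variable. The platelet integrin genes Itga2b and Itgb3 had log2 fold changes of 0.01 ± 0.10 and 0.02 ± 0.33 in Hyp against WT (SE), and Pf4, Ppbp and Gp9 stayed at or below 0.859 CPM. The globin genes Hba-a1 and Hbb-bt, which have near-identical copies, had 0.21 ± 0.32 and 0.20 ± 0.33, and the erythroid list summed to 158 to 331 CPM in cFGF23-Hyp, 212 to 456 CPM in Hyp and 80 to 395 CPM in WT.

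The 8 markers of the proximal tubule, the most abundant cells of the kidney, were mixed in sign and none was called. In Hyp against WT 5 had a negative log2 fold change (median -0.19), and in cFGF23-Hyp against Hyp 6 had a positive one (median 0.17). Slc34a1, the phosphate transporter that FGF23 acts on, averaged 4350 ± 448 CPM in cFGF23-Hyp, 3524 ± 214 CPM in Hyp and 4620 ± 198 CPM in WT (SD, n = 5 each), with a log2 fold change of -0.39 ± 0.08 in Hyp against WT (SE, adjusted p = 0.059, edgeR's quasi-likelihood test). Slc5a2, the glucose transporter of the same segment, had -0.34 ± 0.12 (adjusted p = 0.249). Slc13a3 and Kap had -0.33 ± 0.13 and -0.47 ± 0.18 (SE, adjusted p = 0.267 and 0.280, edgeR's quasi-likelihood test). These 4 were the markers of the list at an unadjusted p below 0.05 in Hyp against WT, and all were lower in Hyp. Slc5a12, Cubn and Lrp2, encoding a lactate transporter and the 2 endocytic receptors of the segment, had values above 0 in Hyp against WT, 0.26 ± 0.27, 0.16 ± 0.11 and 0.07 ± 0.09. By score, cFGF23-Hyp_5 was the lowest library for the other vascular markers (-0.48), leukocyte markers (-0.66) and fibroblast markers (-0.64) as well as for the endothelial set.

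**Figure D5:**
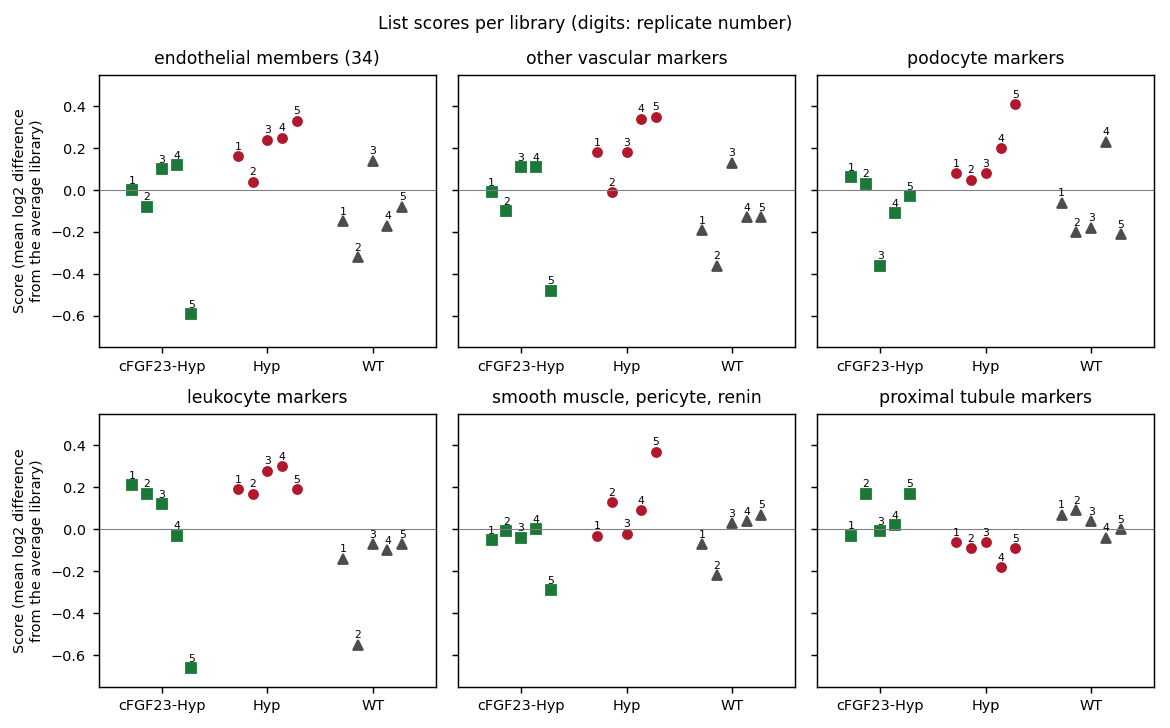
Score of each library (mean log2 CPM difference from the average library) for the endothelial genes and 5 other marker lists, with the replicate number over each point, in cFGF23-Hyp, Hyp and WT. The endothelial score is 0.04 to 0.33 in Hyp, and cFGF23-Hyp_5 lies lowest at -0.59, as it does for other vascular (-0.48) and leukocyte markers (-0.66).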

How the data were processed

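RNA from whole kidney of 15 mice was sequenced, and libraries were prepared with NEBNext Ultra reagents according to the labels' protocols. Whether strand was kept is not stated, so reads of overlapping and antisense genes cannot be told apart. The build mm10 is named in the submitters' processing notes. Which aligner, counter, annotation and test the authors used is not given in the sources used here, and gene positions stand as deposited. The deposited positions of Sema3g, Kdr, Flt1 and Tie1 lie apart from their GRCm38.p6 start windows. The build of the deposited positions is therefore uncertain, and they should not be read as mm10 positions.

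The authors deposited 2 tables with a raw read count per gene and library, a normalized signal that equals the deposited counts times 1 constant per library, FPKM, and the log2 fold change and p-value, raw and adjusted, of the authors' own test. The tables list 28216 and 28110 genes, and 27122 in both were joined by identifier. Entries without a gene name (299, with 0.219% to 0.363% of the counts of a library) were kept out of totals and of the tests.

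Counts were tested with edgeR 4.0.16 (quasi-likelihood F test, TMM scaling, filterByExpr) under R 4.3.3. A single model held all 15 libraries with 3 group means and no other term. Genes with p below 0.05 after Benjamini-Hochberg adjustment over 15789 genes were called. The SE of a log2 fold change is its size over the root of F. CPM are TMM-scaled, and log2 CPM use a prior count of 2. FPKM served for levels between genes and the deposited signal was only checked against the counts. The scripts were tested on simulated data.

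Groups follow titles. The labels describe mice, 1 library each, with no statement on cages or litters. Counts of 2 libraries of a group differed by a chi-square of at least 8.23 per degree of freedom, so no library repeated another. Reads carry no molecular identifiers, and no interval is given for single libraries.

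Members and lists were chosen with earlier results of these data known. Values by library are given for the 10 members with the smallest unadjusted p in Hyp against WT, since none was called. Each other list is represented by its called genes or, without any, by the 2 with the smallest p. These have group means or log2 fold changes only. Vegfa and further genes of the smooth muscle and proximal tubule lists are named outside this rule. Synpr was added to check labels. Alternatives were DESeq2 1.42.0, limma-voom (limma 3.58.1), DESeq2 size factors, no filter, at least 1 CPM in 5 libraries, 2 groups alone, a replicate block, WT_5 placed in Hyp, and libraries left out. A correction for gene length was added after seeing the data. Promoters are from RefSeq (GRCm38.p6), which had 21 of the 34 genes.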

Additional observations from a re-analysis of the deposited data

Results flagged for a closer look

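For 7 of 102 combinations of member and group, 1 library lay far from the other 4 by Dixon's test at the 95% level, where chance gives about 1 in 20. In cFGF23-Hyp, Cldn5 was at 11.5 CPM in cFGF23-Hyp_3, against 7.57 to 8.35 CPM in the others, and Eng at 75.1 CPM in cFGF23-Hyp_5, against 104 to 112 CPM. In Hyp, Hyp_5 stood above the others for Sema3g (80.9 CPM, against 61 to 65 CPM), Clec14a (10.2 CPM, against 6.38 to 7.02 CPM) and Gja5 (7.59 CPM, against 4.63 to 5.4 CPM). In WT, Sox7 was at 3.5 CPM in WT_3, against 1.67 to 2.04 CPM, and Nos3 at 8.01 CPM in WT_4, against 5.91 to 6.5 CPM.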

How the results depend on the processing

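Over the 25 alternatives that refit every gene, 2531 of 2550 log2 fold changes of members kept their direction and their side of the threshold, counting 98 turns of sign within 1 SE as no change, while 13 came past the threshold and 6 turned round. The number of members called in Hyp against WT was 0 with all libraries in edgeR (0.342% of all tested genes). It was 1 with DESeq2 (2.22% of all tested genes) and 3 with the 2 groups alone (3.33%). Without WT_5, cFGF23-Hyp_5 and cFGF23-Hyp_3 it was 7 (9.43% of all tested genes), so calls rose over all genes too. In cFGF23-Hyp against Hyp it was 1 with DESeq2 (0.766% of all tested genes). With each library left out in turn, 0 to 1 members were called in Hyp against WT. The 1 was called without cFGF23-Hyp_3 (2.16% of all tested genes). In cFGF23-Hyp against Hyp and in cFGF23-Hyp against WT 0 were called. The medians of the 3 comparisons ran from 0.29 to 0.41, -0.33 to -0.18 and -0.02 to 0.15. The values that turned round were all in cFGF23-Hyp against WT: Gja4, -0.01 with all libraries and 0.20 without WT_5 and cFGF23-Hyp_5, and, without these and cFGF23-Hyp_3, Ptprb (0.11), Adgrl4 (0.11), Mmrn2 (0.13), Erg (0.24) and Ehd3 (0.05). The cause was not tested.

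Members at an unadjusted p below 0.05 ranged from 8 to 20 in Hyp against WT, 5 to 17 in cFGF23-Hyp against Hyp and 0 to 4 in cFGF23-Hyp against WT with 1 library left out. With WT_5 counted as Hyp, following its genotype label, there were 11, 7 and 0. Log2 fold changes correlated with gene length over all tested genes (Spearman rho 0.21 in Hyp against WT, -0.21 in cFGF23-Hyp against Hyp and 0.00093 in cFGF23-Hyp against WT, across genes, which are not independent replicates), and with that trend taken out the medians of the set were 0.31, -0.26 and 0.03. Same-numbered libraries were not taken as pairs, since 4 of 15 correlations of their deviations were over 0.1 (range -0.17 to 0.18) and 0 libraries correlated best with their own number. With the replicate number as a block, no member was called in any comparison, and all called genes in Hyp against WT were 15, against 54 without it. In Hyp against WT, Sox7, Sox18 and Vwf had SEs of 0.36, 0.35 and 0.30. A log2 fold change of the size of the set's median is not detectable in these genes, and no other member was called in the main fit either. Sox7 and Vwf have few reads, as has Tal1, with an SE of 0.18.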
